A study of Mus musculus with 8 samples.

Results

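Doxycycline withdrawal was compared with sustained knockdown in secondary transplants: 2 mice under the label Tet2 restoration (mice 21 and 23, no doxycycline, PBS) against 3 under the label Tet2 knockdown (mice 16, 17 and 19, doxycycline throughout, PBS). These are 5 of the 8 samples of the series, grouped by their labels. All were C57BL/6J mice of the genotype RTA shTet2. Their leukaemia began in cKit+ marrow cells that received a retrovirus carrying AE9a and a doxycycline-inducible hairpin against Tet2, and it was grown in primary recipients on a doxycycline diet before 50000 leukaemia cells were passed on with 500000 normal marrow cells. Primary recipients were 6 to 8 weeks old. Each library came from the splenic AE9a-positive cells of 1 moribund mouse. Every group, the restored one included, therefore passed through a primary leukaemia with Tet2 knocked down, and loss of doxycycline cannot be told apart from return of Tet2. The labels do not say how many primary leukaemias supplied the secondary recipients, so p-values measure only the spread between these samples.

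TET enzymes oxidise 5-methylcytosine in DNA, a first step towards its removal, and TET2 is among the genes most often mutated in human myeloid leukaemia. AE9a is a short form of the RUNX1-RUNX1T1 fusion protein and causes acute myeloid leukaemia in mice. A doxycycline-inducible hairpin is made only while the drug is given, so withdrawal is meant to let the target transcript come back.

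Total counts were 24.5, 24.0 and 27.1 M (M for 1000000) in mice 16, 17 and 19, and 23.1 and 19.9 M in mice 21 and 23. Levels are given as CPM (counts per 1000000) on TMM-scaled totals, in the order of mice 16, 17 and 19, then 21 and 23. Mitochondrial genes took 9.09%, 10.1% and 11.38% of counts in the knockdown libraries, 9.49% in mouse 21 and 14.5% in mouse 23. Mouse 23 was therefore above the other 4 libraries in this share, and its part in the results was not tested. The fit also used the 2 secondary libraries with ascorbate to estimate the spread, and 12137 genes passed the filter on low counts.

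Tet2 (chromosome 3, 133463679 to 133545139, minus strand, GRCm38) stood at 12.7, 12.7 and 13.4 CPM in the knockdown libraries and at 14.0 and 23.1 CPM in the restored ones. The 95% Poisson interval was 12.6 to 15.6 CPM in mouse 21 and 21.1 to 25.4 CPM in mouse 23, against 12.1 to 14.8 CPM in the highest knockdown library. In these CPM, which are not adjusted for transcript length or GC content, mouse 21 thus lay within the counting error of the knockdown level. Mouse 23 stood above that level by 0.84 on the log2 scale. This difference of 1 library from 3 is given as a description, with no test, since it was known when the 2 mice were set apart. With both libraries together the log2 fold change was 0.52 (SE 0.24, adjusted p = 0.181), and 0.98 when transcript length and GC content were modelled. Tet3, the other TET gene expressed here, went the other way, from 109, 87.9 and 98.8 CPM to 66.6 and 78.3 CPM (log2 fold change -0.45, SE 0.17, adjusted p = 0.118). This Tet3 value is without the model of length and GC content. Of 10 equal bins of genes by length, described below, the longest had a median difference of -0.39 in mouse 21 and -0.36 in mouse 23. The part of transcript length in the Tet3 difference was not tested. Per transcript length, Tet3 was the more abundant in all 5 libraries: the authors' deposited FPKM was 3.90 for Tet3 and 0.81 for Tet2 in mouse 21, and 4.65 and 1.36 in mouse 23. Tet1 had 0 counts in each of these libraries, for which the exact 95% interval reached 0.186 CPM in mouse 23, the shallowest (3 counts there correspond to 0.152 CPM), for counting error only.

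Over all genes, 0 of 12137 passed an adjusted p of 0.05 in edgeR's quasi-likelihood test of the restored against the knockdown group (0%). This count rested on a narrow margin: 215 genes shared the smallest adjusted p, 0.0502, 2039 were under 0.10, and 3549 had an unadjusted p under 0.05. DESeq2's Wald test called 818 genes higher (6.74%) and 1133 lower (9.34%) from the same counts, and limma's voom and trend fits called 0. Tested alone against the 3 knockdown libraries in a fit with 1 group per restored mouse, mouse 23 had 811 genes higher (6.68%) and 877 lower (7.23%), whereas mouse 21 had 0 in either direction (smallest adjusted p 0.295, 1776 genes with an unadjusted p under 0.05, 243 by DESeq2). A direct test of mouse 23 against mouse 21 called 0 genes (smallest adjusted p 0.103, 1508 unadjusted under 0.05, 246 by DESeq2). A lone library is assumed in these fits to vary like the other groups, so the calls for mouse 23 compare that library with the 3 controls and not the conditions. Below, "rose" and "fell" are kept for genes called in mouse 23, and the values of both mice stand side by side, since both are set against the same 3 controls.

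A second reading needs no test. Both restored libraries lay above all 3 knockdown libraries for 2994 genes (24.7%) and below all 3 for 2969 (24.5%). With a fitted change of at least 2-fold besides, these were 693 higher genes (5.71%) and 561 lower ones (4.62%). The counts for each gene group below are to be read against these shares. Where transcript length and GC content were modelled, 2789 of all 12137 genes lay above the controls and 2838 below. The median log2 fold change over all genes tested was -0.00.

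**Figure D1:**
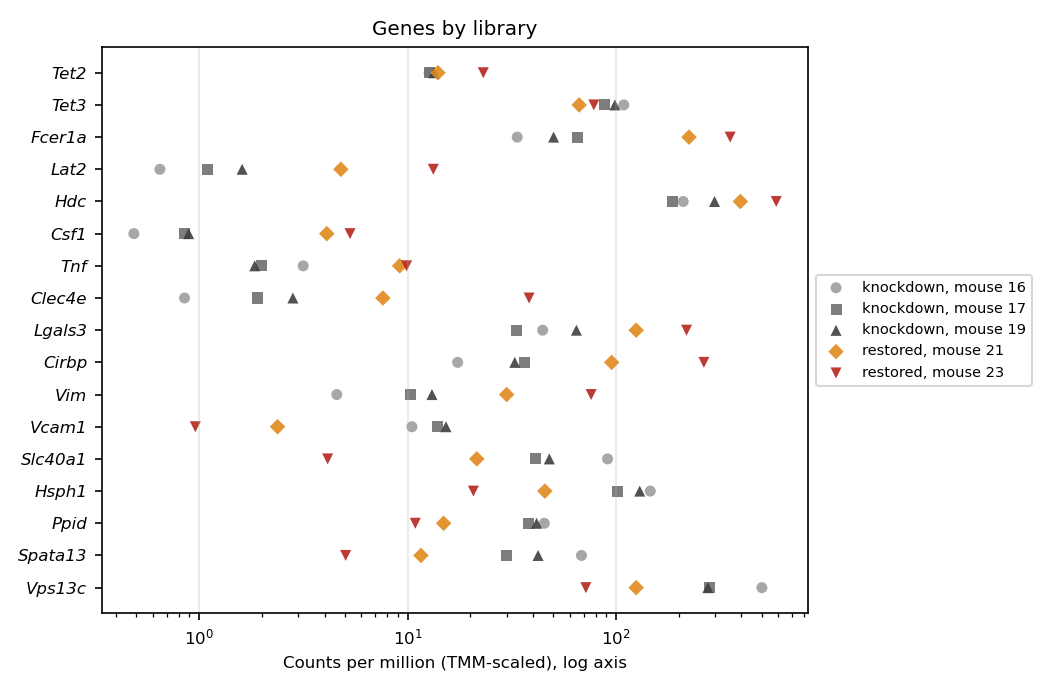
CPM (log axis) of 17 genes in the 3 knockdown libraries (grey) and the 2 restored libraries (mouse 21 orange, mouse 23 red), 1 point per library. Tet2 separates only mouse 23 from the controls by a wide margin, whereas Fcer1a, Csf1 and Cirbp are higher, and Vcam1, Hsph1 and Vps13c lower, in both restored libraries.

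The genes furthest above the controls in both restored libraries included receptors and adaptors of IgE and innate immune signalling. Fcer1a, the alpha chain of the high-affinity IgE receptor of mast cells and basophils (chromosome 1, 173221284 to 173227214), went from 33.6, 65.7 and 50.2 CPM to 224 and 353 CPM. That is a log2 fold change of 2.53 (SE 0.32, adjusted p = 0.0502), with 2.17 in mouse 21 and 2.83 in mouse 23, where it rose (adjusted p = 0.0142). Lat2, an adaptor that couples this receptor to its signalling chain, stood at 0.649, 1.10 and 1.61 CPM and then at 4.79 and 13.3 CPM, although its exons overlap those of Rfc2. Of the list of IgE receptor and mast cell signalling genes, 12 of 29 tested lay above the controls and 5 below. By 2-fold, 6 lay above and 2 below, and the list median was 0.27. Csf2rb2 and Csf2rb, near-identical receptor chains for interleukin-3 and related cytokines whose reads may be shared, both rose in mouse 23. Csf2rb2 read 323, 407 and 428 CPM in the controls and 938 and 924 CPM in mice 21 and 23, so both restored libraries were about equally high.

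Markers of mast cells and basophils were higher in both mice: 8 of 11 tested lay above all controls, 5 by 2-fold, and 0 below, with a median of 1.33. Summed over the 13 markers in the table, their level was 641, 520 and 649 CPM in the controls, 1250 CPM in mouse 21 and 1490 CPM in mouse 23. Hdc, which makes histamine, rose in mouse 23 from 210, 186 and 297 CPM to 587 CPM, with 395 CPM in mouse 21. Cma1, a mast cell chymase, also rose (13.1, 12.3 and 17.0 CPM, then 32.6 and 38.7 CPM). Cpa3, the mast cell carboxypeptidase, was an exception in order, since mouse 21 (101 CPM) was above mouse 23 (44.6 CPM), both over controls of 10.5 to 24.4 CPM. Il4, also on this list, was another, and its values are given below. Tpsb2, a defining tryptase of connective-tissue mast cells, had 0 counts in all 5 libraries. In RNA from bulk cells, fewer cells of a type and less RNA per cell cannot be told apart, here and for every marker list below.

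The promoter of Fcer1a is shown because 2 short motifs in it recur among these markers. In the RefSeq window (GRCm38.p6, 250 bases before to 50 after the annotated start), AGATAA, the core that GATA factors bind, was found on either strand in 5 of the 11 mast cell and basophil markers tested (Fcer1a, Ms4a2, Cpa3, Prss34 and Cd200r3), against 8.13% of the 8696 tested genes with a window and 11.2% of all 32851 windows. TGTGGT, the core that RUNX factors bind, was also found in 5 of the 11 (Fcer1a, Cpa3, Cma1, Mcpt8 and Mcpt4), against 15.2% of tested genes and 16.8% of all windows. Gata2, which encodes a GATA factor of mast cells and progenitors, itself stood at 17.0, 25.7 and 11.8 CPM and then at 50 and 55.9 CPM (log2 fold change 1.54, SE 0.42, adjusted p = 0.0696). The stretch runs from 120 bases before to 30 bases at the start of the transcript, at chr1:173227200-173227349 on the minus strand, with both motifs in capitals.
Fcer1a: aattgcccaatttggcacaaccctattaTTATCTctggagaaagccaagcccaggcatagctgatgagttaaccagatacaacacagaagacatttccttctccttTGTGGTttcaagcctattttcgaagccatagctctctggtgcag

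The leading cytokine genes were higher by similar amounts in the 2 mice. Csf1, the growth factor of macrophages, had 0.487, 0.855 and 0.892 CPM in the controls and 4.10 and 5.30 CPM in mice 21 and 23 (log2 fold change 2.64, SE 0.42, adjusted p = 0.0502). Tnf stood at 3.16, 2.0 and 1.85 CPM and then at 9.17 and 9.90 CPM, with log2 changes of 1.97 and 2.08 in the 2 mice. Il4, the T helper 2 cytokine that basophils also make, stood at 7.87, 8.64 and 8.31 CPM, a narrow range, and then at 17.4 and 14.6 CPM. All 3 rose in mouse 23 (adjusted p = 0.0177, 0.0192 and 0.0441). Of the 17 cytokine genes tested, 8 lay above the controls, 5 of them by 2-fold, and 1 below. Among 13 chemokine and receptor genes, Ccl17, a ligand for T helper 2 cells, rose from 2.80, 3.18 and 3.21 CPM to 9.19 CPM in mouse 23, with 6.10 CPM in mouse 21. That list had no common direction: 4 of the 13 lay above the controls and 2 below, and its median difference was 0.67 in mouse 21 and -0.40 in mouse 23, where 8 genes were under 0.

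Among lectins and Fc receptors of innate immune cells, single genes stood far above the controls. Clec4e, a receptor for mycobacterial and fungal glycolipids, had the largest fitted rise of the 15 genes named for lying above the controls in both mice: 0.852, 1.91 and 2.82 CPM in the controls, 7.62 CPM in mouse 21 and 38.3 CPM in mouse 23. Fcgr3, a low-affinity receptor for IgG, was set almost wholly by mouse 23, at 40.4 CPM against 3.15 CPM in mouse 21 and 1.5 to 2.46 CPM in the controls. Lgals3, which encodes galectin-3, was higher in both, at 44.5, 33.3 and 64.6 CPM and then at 125 and 218 CPM, and it rose in mouse 23 (adjusted p = 0.0143). Of 22 galectin and lectin genes tested, 6 lay above, 5 by 2-fold, and 1 below; the one below was the macrophage mannose receptor Mrc1, and the median difference was 0.33 in mouse 21 and 0.08 in mouse 23. Of 20 complement and Fc-gamma receptor genes, 3 lay above and 2 below, and 1 rose and 3 fell in mouse 23. Vim, the intermediate filament protein vimentin, rose from 4.58, 10.3 and 13.1 CPM to 76.0 CPM in mouse 23, with 29.9 CPM in mouse 21. Capg, an actin-capping protein, also rose in mouse 23 (149, 165 and 184 CPM, then 293 and 349 CPM), whereas Flna, the actin cross-linker filamin A, fell (368, 412 and 354 CPM, then 235 and 142 CPM). Of 51 actin and myosin genes, 20 lay above the controls and 11 below, and 7 rose and 2 fell in mouse 23.

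Macrophage markers were lower in both mice, and lowest in mouse 23. Of 13 tested, 9 lay below all controls, each by at least 2-fold, 0 lay above, and 7 fell in mouse 23; the median difference was -0.88 in mouse 21 and -2.17 in mouse 23. Vcam1, an adhesion molecule of splenic macrophages (chromosome 3, 116109949 to 116129688), went from 10.5, 14.0 and 15.3 CPM to 2.38 and 0.960 CPM. Slc40a1, the iron exporter ferroportin, stood at 91.1, 41.3 and 47.9 CPM, then at 21.5 and 4.14 CPM. Hmox1, which breaks down haem, fell from 5.68, 7.09 and 8.10 CPM to 1.46 CPM in mouse 23 and read 2.46 CPM in mouse 21. Summed over 14 markers, the level was 139, 117 and 139 CPM in the controls, 59.4 CPM in mouse 21 and 20.5 CPM in mouse 23. The sums of stroma, T cell and plasma cell markers showed a like order, and those of the other minor populations did not. Stroma and endothelium markers summed to 4.95, 4.64 and 8.81 CPM, then to 2.38 and 1.57 CPM, with Col1a1 (collagen) at 44, 34 and 59 counts in the controls and 1 and 0 counts in mice 21 and 23. T cell markers summed to 8.36, 9.25 and 9.20 CPM, then to 6.10 and 3.23 CPM. Only 2 of them were tested, and 1 lay above all controls and 1 below. Their median difference was 0.35 in mouse 21 and -0.60 in mouse 23. Plasma cell markers summed to 167, 153 and 150 CPM, then to 135 and 69.7 CPM, and 2 were tested. B cell markers were at 28.9, 26.5 and 28.0 CPM in the controls and 27.1 CPM in mouse 21, and at 12.6 CPM in mouse 23. Neutrophil markers had a wide range among the controls (4.25 to 13.7 CPM, then 14.9 and 21.2 CPM), and Ly6g, their defining surface marker, had 0 counts throughout. Megakaryocyte markers went the other way from macrophage markers, at 60.3, 69.3 and 64.1 CPM and then at 84.2 and 70.2 CPM. NK cell markers (0.69, 1.38 and 3.32 CPM, then 1.84 and 2.12 CPM) overlapped in both mice. Dendritic cell markers (2.6, 4.81 and 9.35 CPM, then 3.07 and 1.31 CPM) overlapped in mouse 21. Erythroid markers summed to 5460 to 12800 CPM in the controls, a range that held both restored libraries. Most of each sum was Hbb-bs, an adult beta-globin gene (4510, 9300 and 3500 CPM, then 8680 and 6280 CPM). Gene by gene, the erythroid median difference was -0.14 in mouse 21 and -1.37 in mouse 23, where 9 of 11 genes were under 0, 3 fell and 0 rose. The part of these accompanying cells in the gene groups described here was not tested.

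**Figure D2:**
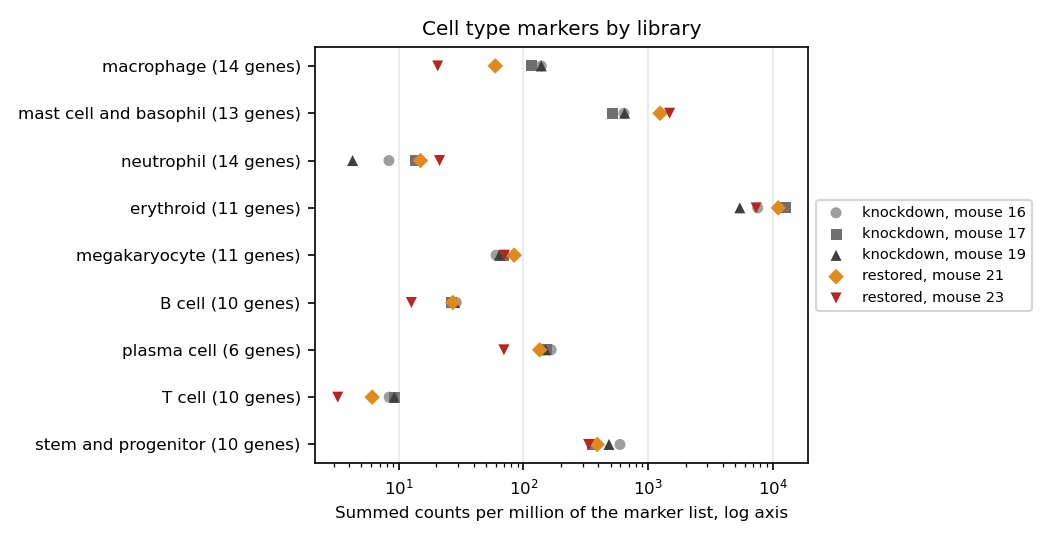
Summed CPM (log axis) of 9 cell type marker lists, 1 point per library, with knockdown libraries in grey and restored libraries in colour. Macrophage markers are lowest in mouse 23 (20.5) and next lowest in mouse 21 (59.4), mast cell and basophil markers are highest in these 2 mice (1490 and 1250), and the erythroid sums overlap.

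Genes for protein synthesis divided into groups that moved apart. Cytosolic aminoacyl-tRNA synthetases, which load each transfer RNA with its amino acid, were lower. In this list, which includes the scaffold proteins Aimp1 and Aimp2, 15 of 22 tested lay below all controls and 0 above. The median was -0.57, and 11 fell in mouse 23. The median difference was -0.38 in mouse 21 and -0.76 in mouse 23, and the 3 controls differed among themselves by medians of -0.10 to 0.08. Iars, the isoleucine enzyme (chromosome 13, 49682100 to 49734267), had 358, 281 and 296 CPM in the controls and 160 and 85.4 CPM in mice 21 and 23 (log2 fold change -1.34, SE 0.28, adjusted p = 0.0502; mouse 23 alone -1.87, adjusted p = 0.0153). Cars, the cysteine enzyme, read 92.0, 99.1 and 81.7 CPM, then 55.0 and 29.0 CPM. Eprs, which serves glutamate and proline, read 509, 422 and 413 CPM, then 275 and 159 CPM. Gars, the glycine enzyme, read 300, 311 and 257 CPM, then 175 and 121 CPM. All 4 fell in mouse 23, with no overlap between the groups and mouse 21 between the controls and mouse 23 in each.

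A few synthetases stood apart. Kars, the lysine enzyme, was at 1080, 997 and 1000 CPM and then at 1020 and 1000 CPM, a log2 fold change of -0.02 (SE 0.13). Vars (valine) and Wars (tryptophan) had log2 fold changes of -0.02 (SE 0.15) and -0.09 (SE 0.15), and Farsa, one chain of the phenylalanine enzyme, -0.00 (SE 0.18), although Farsb, the other chain, fell in mouse 23 (181, 169 and 152 CPM, then 125 and 95.3 CPM). These were picked after their values were seen. When transcript length and GC content were modelled, the list median was -0.52, with 15 genes still below all controls and 2 above. Mitochondrial synthetases, a list added after values were seen, had a median of -0.30, with 6 of 17 below and 3 above.

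**Figure D3:**
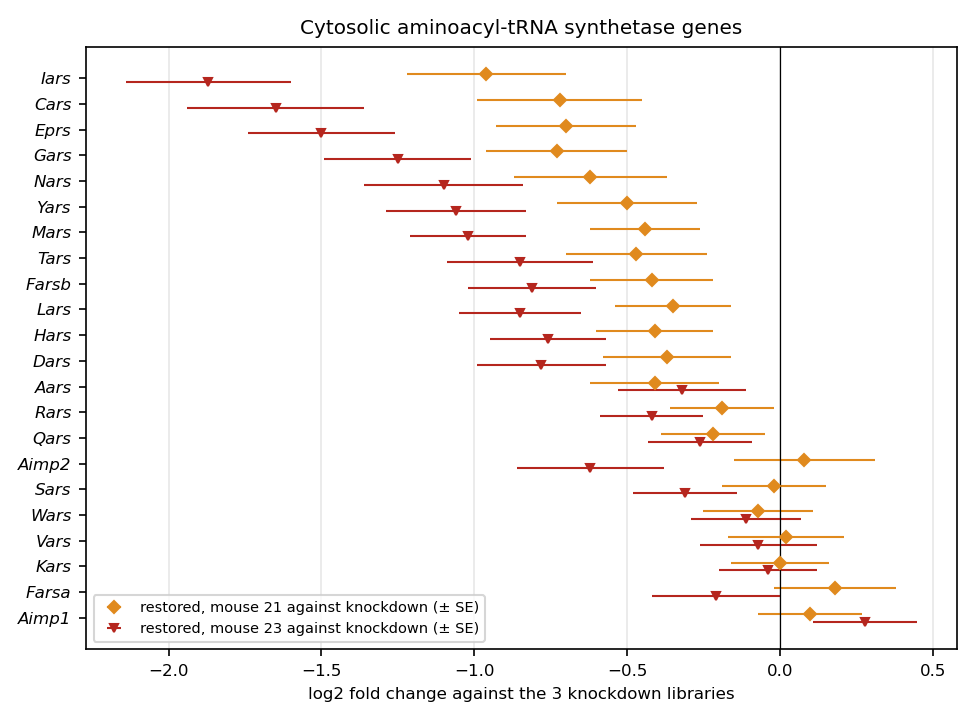
Log2 fold change ± SE of 22 cytosolic aminoacyl-tRNA synthetase genes (and 2 of their scaffold proteins, Aimp1 and Aimp2, counted among the 22) in mouse 21 (orange) and mouse 23 (red), each against the same 3 knockdown libraries. Iars, Cars, Eprs and Gars are the lowest in mouse 23, and Kars, Vars and Wars lie near 0 in both mice.

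Many synthetase genes, and genes of amino acid uptake and serine synthesis, are targets of ATF4, the transcription factor of the amino acid response, which binds a composite element with C/EBP partners. TGATGNAA, searched on both strands in the RefSeq windows, was present in 2.74% of tested genes and 3.97% of all windows. It was present in 5 of the 14 genes of the synthetase list with a window, Aimp1 included (35.7%: Aars, Gars, Iars, Tars and Yars). The promoters of Iars, Gars and Yars are shown from 120 bases before to 30 bases at the start, since these genes of the 5 fell in mouse 23. The capitals mark the element, at chr13:49682010-49682159 (plus strand), chr6:55037881-55038030 (plus strand) and chr4:129189783-129189932 (plus strand).
Iars: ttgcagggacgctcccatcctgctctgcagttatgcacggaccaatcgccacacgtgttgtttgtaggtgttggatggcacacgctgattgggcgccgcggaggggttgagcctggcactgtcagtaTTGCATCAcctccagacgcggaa
Gars: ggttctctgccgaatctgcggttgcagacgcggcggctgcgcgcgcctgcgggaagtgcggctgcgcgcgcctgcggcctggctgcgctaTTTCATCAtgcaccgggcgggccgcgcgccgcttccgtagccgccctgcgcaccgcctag
Yars: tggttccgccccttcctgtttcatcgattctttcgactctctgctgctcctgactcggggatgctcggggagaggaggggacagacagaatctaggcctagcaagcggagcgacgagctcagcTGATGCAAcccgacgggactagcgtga

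The element lies close to the annotated start in all 3. Its first base is 7 bases past the start in Iars, 3 bases past it in Yars and 30 bases before it in Gars. It was not found in the window of Eprs, and Cars had no matched window. A list of ATF4 targets, added after values were seen, had a median of -0.38, with 14 of 31 below all controls, 1 above, and 7 lower and 1 higher by the test in mouse 23. Cebpg, the C/EBP partner, fell from 105, 67.1 and 84.7 CPM to 23.5 CPM in mouse 23, with 47.9 CPM in mouse 21. Slc1a4, a transporter of neutral amino acids, fell from 33.5, 26.9 and 25.4 CPM to 11 CPM, with 18.1 CPM in mouse 21. Mthfd2, the mitochondrial folate enzyme, fell from 119, 141 and 107 CPM to 31.6 CPM, with 76.5 CPM in mouse 21. Atf4 itself differed little, although both restored libraries lay below all controls (310, 338 and 291 CPM, then 281 and 258 CPM, log2 fold change -0.21, SE 0.19). Ddit3, which encodes the stress factor CHOP, was the one ATF4 target above the controls, at 26.9, 27.9 and 22.8 CPM and then at 45.5 and 53.1 CPM. Its exons overlap those of Mars, which fell, and strand was not stated for the counting.

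Serine, folate and polyamine genes had a median of -0.45, with 12 of 24 below all controls and 4 above. Mtr, methionine synthase, read 95.5, 77.4 and 87.5 CPM, then 55.8 and 44.8 CPM. Sat1, which breaks polyamines down, was the opposite, rising in mouse 23 from a narrow 27.0, 26.3 and 27.1 CPM to 78.7 CPM (adjusted p = 0.00915), with 43.9 CPM in mouse 21. Nucleotide synthesis genes lay below the controls in 11 of 27 cases and above in 1, with a median of -0.29, and 7 fell and 1 rose in mouse 23. Cad, which starts pyrimidine synthesis, fell in mouse 23 (286, 313 and 264 CPM, then 183 and 130 CPM). Impdh1, of guanine nucleotide synthesis, was the one that rose (19.2, 15.2 and 33.4 CPM, then 51.6 and 75.1 CPM).

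Genes that carry small nucleolar RNAs in their introns were higher in both mice: 13 of 15 tested lay above all controls and 0 below, with a median of 0.65 (0.69 in mouse 21 and 0.82 in mouse 23), and 4 rose in mouse 23. With length and GC content modelled the median was 0.67 and 14 of 15 lay above. Small nucleolar RNAs guide the chemical modification of ribosomal RNA, and the spliced host transcripts counted here mostly make no protein. Gas5 stood at 186, 214 and 211 CPM and then at 318 and 295 CPM. Snhg4 stood at 14.4, 14.0 and 13.8 CPM and then at 22.7 and 26.0 CPM. Snhg3 stood at 26.4, 33.7 and 26.0 CPM and then at 46.0 and 57.8 CPM, and like most of the group it shares exonic bases with annotated neighbours, here Rcc1. The list also holds Neat1, a nuclear RNA that carries none, at 10.1, 11 and 13.5 CPM and then at 28.1 and 20.4 CPM.

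Ribosomal protein genes were also higher, in a list added after values were seen: 48 of 75 lay above all controls and 2 below, with a median of 0.41, and 5 rose in mouse 23. Here the median was 0.21, with 29 above, once length and GC content were modelled. Rps24 stood at 496, 619 and 590 CPM and then at 978 and 1060 CPM. Rpl23 stood at 498, 520 and 532 CPM and then at 764 and 829 CPM, above the controls by more than their whole range. Translation factors (median -0.01, 9 of 39 above and 11 below), the proteasome (0.06, 14 and 10 of 40) and lysosomal genes (0.04, 17 and 10 of 49) had medians near 0. The mitochondrial ribosome had a median of 0.15, with 23 of 63 above and 4 below, and of -0.00, with 13 above and 15 below, once length and GC content were modelled. Gene groups of protein synthesis and turnover thus had medians on either side of 0.

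**Figure D4:**
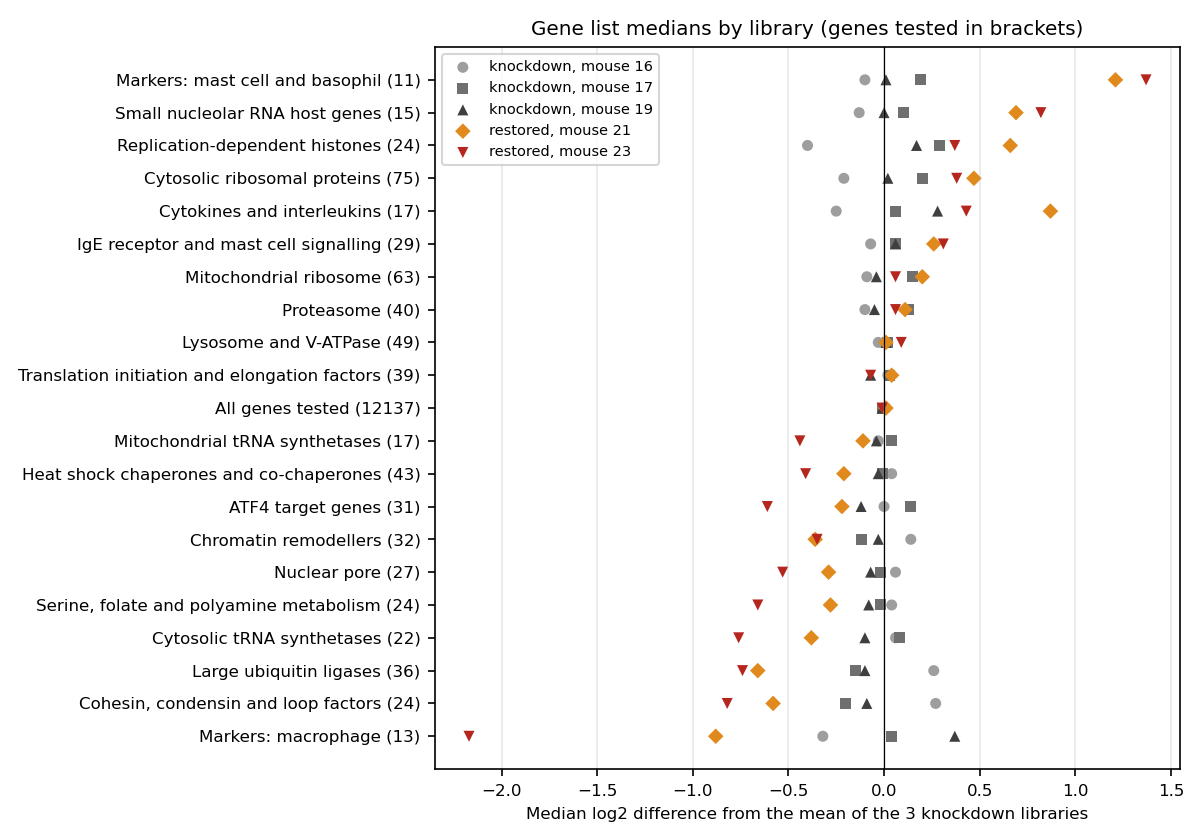
Median log2 difference of each gene list from the mean of the 3 knockdown libraries, 1 point per library, with the number of genes tested in brackets. Small nucleolar RNA host genes are higher in mice 21 and 23 (0.69 and 0.82), cytosolic tRNA synthetases lower (-0.38 and -0.76), and translation factors, proteasome and lysosome lie near 0 in all 5 libraries.

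Heat shock genes were lower as a further group, also listed after values were seen: 26 of 43 chaperones and co-chaperones lay below all controls and 5 above, with a median of -0.29, and 8 fell in mouse 23. Hsph1, a nucleotide exchange factor of HSP70 (chromosome 5, 149614287 to 149636376), fell from 146, 102 and 130 CPM to 20.7 CPM in mouse 23, with 45.6 CPM in mouse 21 (log2 fold change -1.92, SE 0.39, adjusted p = 0.0502). Ppid, a co-chaperone of HSP90, fell from 45.3, 37.9 and 41.6 CPM to 10.9 CPM, with 14.9 CPM in mouse 21. Hspa4l, a relative of Hsph1, fell from 258, 149 and 158 CPM to 49.1 CPM, with 72.0 CPM in mouse 21. Hspa1b, the inducible HSP70 whose reads may be shared with its near-identical neighbour Hspa1a, varied widely among the controls (6.53, 28.4 and 14.8 CPM, then 4.67 and 1.41 CPM). Hsp90ab1, the constitutive HSP90, had a log2 fold change of -0.02 (SE 0.15). Cirbp, an RNA-binding protein induced by cold and lowered by heat (chromosome 10, 80165985 to 80172786), was the opposite, at 17.4, 36.3 and 32.7 CPM and then at 95.4 and 264 CPM (log2 fold change 2.64, SE 0.49), and rose in mouse 23 (adjusted p = 0.0143). Rbm3, the other cold-induced gene of its kind, rose as well, from 99.2, 129 and 110 CPM to 208 CPM, with 176 CPM in mouse 21.

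Heat shock factor HSF1 binds repeats of GAA in alternating orientation. A row of 3 such units, GAANNTTCNNGAA on either strand, occurred in the windows of 3 of the 36 listed genes that have one (Hsph1, Chordc1 and Dnajb6), against 0.529% of tested genes and 0.603% of all windows. The promoters of Hsph1 and Chordc1 are shown because both genes fell in mouse 23, with the element in capitals, at chr5:149636286-149636435 (minus strand) and chr9:18292147-18292296 (plus strand). Chordc1, a co-chaperone of HSP90, holds 3 overlapping matches in 1 run.
Hsph1: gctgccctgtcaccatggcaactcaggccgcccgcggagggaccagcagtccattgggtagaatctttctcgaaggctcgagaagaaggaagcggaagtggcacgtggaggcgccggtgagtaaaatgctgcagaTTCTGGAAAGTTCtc
Chordc1: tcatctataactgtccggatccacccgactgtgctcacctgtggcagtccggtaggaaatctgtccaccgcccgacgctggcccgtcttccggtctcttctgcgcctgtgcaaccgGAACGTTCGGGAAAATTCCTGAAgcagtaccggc

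Chordc1 stood at 132, 75.9 and 105 CPM and then at 54.6 and 24.5 CPM (mouse 23 alone -2.09, adjusted p = 0.0230). Dnajb6, the third gene with the element, went the other way (12.4, 12.7 and 13.3 CPM, then 14.7 and 20.1 CPM).

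Cohesin, condensin and loop factors, the ring complexes that hold and fold chromosomes, were lower: 21 of 24 lay below all controls and 1 above, with a median of -0.73, and 11 fell in mouse 23. Ncapg2, a condensin II subunit, fell from 235, 171 and 177 CPM to 48.7 CPM in mouse 23, with 90.6 CPM in mouse 21. Smchd1, a structural protein of the inactive X chromosome, fell from 263, 176 and 207 CPM to 53.6 CPM, with 97.8 CPM in mouse 21. Top2b, a DNA topoisomerase, fell from 452, 294 and 321 CPM to 153 CPM, with 193 CPM in mouse 21. Mouse 16 was the highest control for each of these. With length and GC content modelled, the median was -0.47 and 18 of 24 lay below. Nuclear pore genes lay below the controls in 20 of 27 cases and above in 0 (median -0.43, or -0.30 with length and GC content modelled), among them Ranbp2, the pore's cytoplasmic filament (498, 328 and 364 CPM, then 198 and 163 CPM).

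Large ubiquitin ligases and related enzymes lay below the controls in 29 of 36 cases and above in 1, with a median of -0.72 and 12 that fell in mouse 23. Rnf213, a very large ligase, read 1120, 940 and 999 CPM, then 578 and 411 CPM, and fell in mouse 23. Usp9x, a deubiquitinase, read 186, 103 and 125 CPM, then 49.3 and 49.7 CPM, so the 2 restored mice were nearly equal. Vps13c, a lipid-transfer protein, fell from 501, 280 and 276 CPM to 71.7 CPM in mouse 23, with 125 CPM in mouse 21. These groups hold long transcripts (median length 9802 bases for the ligases against 3863 bases for all genes tested), and the ligases' median was -0.36 with length and GC content modelled.

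Length moved with the difference across the whole transcriptome. With the genes tested ordered by length and cut into 10 equal bins, the shortest bin (median 806 bases) had a median log2 difference from the controls' mean of 0.39 in mouse 21 and 0.39 in mouse 23, and the longest bin (median 11538 bases) had -0.39 and -0.36. The controls also differed: mouse 16 ran from -0.16 to 0.18, mouse 17 from 0.17 to -0.15, and mouse 19 from 0.01 to -0.03. Both restored libraries thus had a length trend in the direction of mouse 17 and, between the end bins, steeper than that of any control. Over single genes, the rank correlation of the difference with length was 0.36, -0.35 and -0.06 in the controls, and -0.46 and -0.28 in mice 21 and 23. With GC content it was -0.45, 0.41 and 0.10 in the controls, and 0.31 and 0.22 in mice 21 and 23. Of the 693 genes higher by 2-fold, 506 were shorter than the median gene and 165 longer. Of the 561 lower by 2-fold, 150 were shorter and 403 longer. The part of this trend in the group differences was not tested. With length and GC content modelled, list medians not given above included 0.33 (IgE receptor and mast cell signalling), 1.29 (mast cell and basophil markers), 0.38 (cytokines) and 0.27 (chemokines). Others were 0.04 (lectins), -1.62 (macrophage markers) and -1.02 (erythroid markers). Neutrophil markers had 0.91 (1.19 without the model), B cell markers -0.70 (-0.45 without) and stroma and endothelium markers -1.87 (-2.05 without). Mitochondrial synthetases had -0.20. In the same model the median was -0.50 for ATF4 targets, -0.45 for serine, folate and polyamine genes, -0.23 for nucleotide synthesis and -0.30 for heat shock genes. With that model mouse 23 alone had 2640 genes called in place of 1688.

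**Figure D5:**
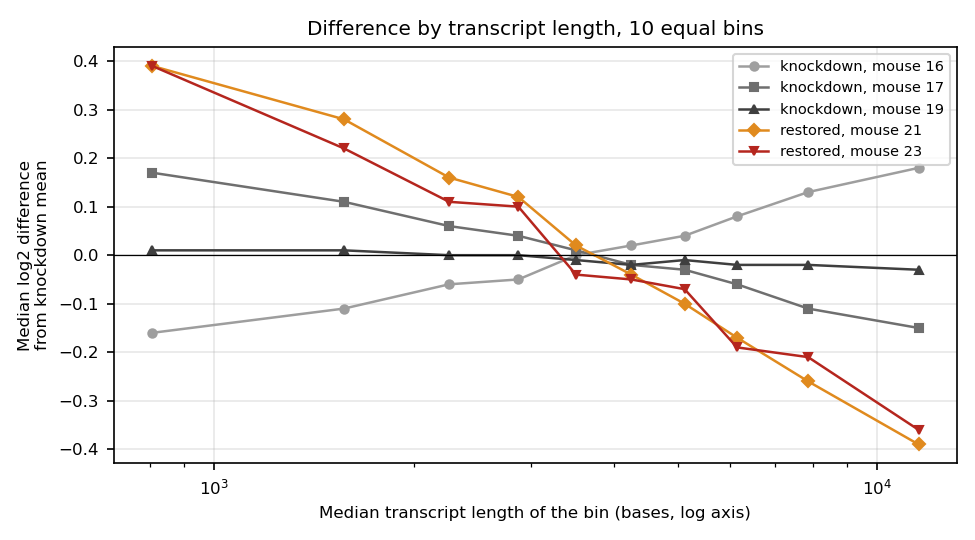
Median log2 difference from the mean of the 3 knockdown libraries (y axis) for 10 equal bins of the tested genes ordered by transcript length (x axis, bases, log scale), 1 line per library. Mice 21 and 23 run from 0.39 in the shortest bin to -0.39 and -0.36 in the longest, and mouse 16 slopes the other way.

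Families formed by gene symbol repeated this order. Of 53 families with at least 20 genes tested, the highest medians belonged to Rpl (0.49), Hist (0.45) and Rps (0.44), followed by predicted genes named Gm and clone loci named AC (both 0.38) and by the nucleotide hydrolases Nudt (0.30). Families go by symbol alone, so Rpl and Rps (83 and 63 genes tested) together are wider than the list of 75 ribosomal protein genes above. In them 11 and 3 genes lay above by 2-fold, against 2 of that list. The lowest were the deubiquitinases Usp (-0.40), the kinesins Kif (-0.38), the centrosomal Cep genes (-0.35), the ligase adaptors Klhl (-0.29), the surface antigens Cd (-0.28) and the ligases Trim (-0.25). The Cd family alone among the 6 lowest had medians of opposite sign in the 2 mice, 0.14 in mouse 21 and -0.68 in mouse 23. With length and GC content modelled, the AC loci kept 0.38, while Rpl had 0.20, Hist 0.17, Rps 0.16, Gm 0.11 and Nudt 0.07. In that model Klhl had -0.31, Usp -0.29, Cd -0.28, Kif -0.25, Trim -0.11 and Cep -0.10. Among replication-dependent histones, whose transcripts mostly lack the poly(A) tail that the library kit selects, Hist1h1c rose in mouse 23 (40.4, 76.9 and 53.8 CPM, then 160 and 228 CPM). Of the 24 histone genes of that list tested, 10 lay above all controls, 5 by 2-fold, and 2 below, 1 by 2-fold. The list median was 0.47, or 0.32 with length and GC content modelled, where the median in mouse 23 alone was 0.09. Predicted and clone-named loci made up 285 of the 693 genes higher by 2-fold and 61 of the 561 lower, of 1816 tested.

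Pja1, a ubiquitin ligase gene on the X chromosome (99465734 to 99471273), had the largest fall of the genes named for both mice. Its counts were 113, 183 and 113 in the controls, 9 in mouse 21 and 0 in mouse 23. The fitted log2 fold change was -4.73 (SE 1.06, adjusted p = 0.0542) and depends on the prior count. Ehf, an ETS-family factor of epithelial cells, was also well below the controls in both mice (86.2, 27.9 and 37.4 CPM, then 10.4 and 5.51 CPM). Median differences by chromosome ran from -0.098 to 0.14 in mouse 21 and from -0.179 to 0.098 in mouse 23, where the X chromosome was the lowest, and Xist was read in all 5 libraries with Y-linked genes at 0 to 2 counts.

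The 2 restored mice differed most in a set of single genes, none of which passed the test of one mouse against the other. Olfr873, an olfactory receptor gene, had 0.892, 0.896 and 1.03 CPM in the controls, 0.778 CPM in mouse 21 and 17.0 CPM in mouse 23 (adjusted p = 0.103 between the mice). Pklr, the red cell pyruvate kinase, had 118, 128 and 97.8 CPM in the controls, 64.3 CPM in mouse 21 and 9.49 CPM in mouse 23 (adjusted p = 0.103). Gab1, a docking protein of receptor kinases, had 17.8, 15.7 and 19.2 CPM, then 12.3 and 1.11 CPM. Rcn1, a calcium-binding protein of the endoplasmic reticulum, had 17.6, 9.69 and 13.1 CPM, then 9.71 and 0.909 CPM. In each of these mouse 23 was far outside the controls. Mouse 21 lay below every control for Olfr873, Pklr and Gab1, and within their range for Rcn1. H2-Eb1, a class II antigen-presenting chain, was low in mouse 23 alone (4.14, 6.11 and 9.03 CPM, then 7.86 and 1.31 CPM).

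Among genes of DNA methylation, Dnmt1, the maintenance methyltransferase, fell from 621, 626 and 593 CPM to 330 CPM in mouse 23, with 483 CPM in mouse 21. Uhrf1, which brings it to newly copied DNA, fell from 207, 213 and 199 CPM to 115 CPM, with 161 CPM in mouse 21. Zbtb4, which binds methylated DNA, rose in mouse 23 (22.9, 20.4 and 23.9 CPM, then 24.8 and 39.5 CPM), and mouse 21 lay just above the highest control. The de novo enzyme Dnmt3a had a log2 fold change of 0.01 (SE 0.23). Of 17 genes of this list, 3 lay above the controls and 5 below, with a median of -0.16. With length and GC content modelled the median was 0.04, and 6 lay above and 6 below.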

How the data were processed

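Gene counts of 8 mouse spleen leukaemia libraries were used as the authors deposited them: whole-number counts per gene symbol for 52459 symbols, not normalized. The deposited FPKM values, from the authors' second table, served for levels per length, for transcript length (from the ratio of count to FPKM) and for an alternative test. STAR, featureCounts and DESeq2 with mm10 (GRCm38) are named in the submitters' processing notes, without settings or strand. As deposited, 26 symbols read as dates. The annotation (GENCODE, GRCm38) held 91.7% of symbols.

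Tests were run with edgeR (version 4.0.16, under R 4.3.3) by quasi-likelihood, with TMM factors, filterByExpr with a minimum count of 10, 7 secondary libraries in 3 groups, or in 4 with mice 21 and 23 apart, and Benjamini-Hochberg adjustment at 0.05 over all 12137 genes. The code was run on simulated counts with the same spread for all genes and no trend with length or GC content. That run checks the code and not how the test behaves on these libraries. DESeq2 1.42.0 and limma 3.58.1 gave alternatives. A further fit carried a spline of transcript length and GC content (5 degrees of freedom) as an offset. Mouse numbers pair no samples.

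Named genes were Tet1, Tet2 and Tet3; up to 15 per direction with the largest fold change among those with an unadjusted p under 0.01, separate groups and at least 5 CPM; up to 8 per direction that differed most between mice 21 and 23; and the 4 members of each list with the smallest p. Predicted genes were only counted. Names outside this rule, 4 added lists and the promoter motifs were chosen after values were seen. The comparison and all lists were chosen with earlier results of these data known. Of 270 named genes, 85 share exonic bases with another gene, and without a stated strand their reads cannot be told apart. Intervals and the limit of 3 counts cover counting error only.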

Additional observations from a re-analysis of the deposited data

How the results depend on the processing

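Of the genes called between the groups (0), edgeR gave 367 with DESeq2 size factors, 426 with a minimum count of 50 and 2207 with no filter, and DESeq2's Wald test 1951; leaving out 1 library gave 0 to 1692, the latter without mouse 21. For mouse 23 alone (1688), no filter gave 3060, DESeq2 2757, the length and GC offset 2640, and leaving out 1 library 640 (mouse 19) to 1845, with 974 without mouse 16. For mouse 21 (0), no filter gave 696 and DESeq2 243. Between the mice (0), no filter gave 356, DESeq2 246 and the offset 24. Genes above by 2-fold (693) numbered 1640 with no filter, 389 with a minimum count of 50, and 373 and 180 on log2(FPKM + 0.1) and log2(FPKM + 1); genes below (561) numbered 982, 333, 331 and 147. Leaving out 1 library gave 664 to 1309 above and 490 to 1546 below, the highest without mouse 21. The cause of these moves was not tested. The group test covered 22734 genes with no filter and 9957 with the minimum of 50, but the calls also changed for genes tested in the main fit. Of the named genes, 200 of 269 were called between the groups with no filter, and 92 of 243 with the minimum of 50. Of 58 list medians, 38 kept their sign in every alternative, those of the synthetases (-0.77 to -0.39) and snoRNA hosts (0.57 to 0.82) among them. Reversed signs among named genes were: on leaving out 1 library, Olfr873 (-0.27 without mouse 23 to 4.17), Rab11fip4 (-0.34 without 23 to 2.60), Mfge8 (-1.29 without 23 to 1.34), Ikbke (-2.10 without 21 to 0.79 without 23, and 0.22 without 16), H2-Eb1 (-2.29 to 0.29 without 23), Cd200r2 (-2.04 to 0.48 without 23), mt-Cytb (-0.53 to 0.18 without 21), Gp9 (-0.14 without 21 to 0.86), Kdr (-0.43 to 0.10 without 16) and mt-Nd6 (-0.16 without 17 to 0.40); with the offset, Ikbke 0.24, mt-Nd6 -0.11, Xist 0.14, Gp9 -0.07 and Kdr 0.06; with voom, Mfge8 -0.02, mt-Nd6 -0.10, Nkg7 -0.05 and Kdr 0.01; and Ikbke 0.02 with library totals and 0.0 with a minimum of 50. No paired analysis was possible because the groups share no replicate number.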

Other observations

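The 2 libraries of the ascorbate group, kept on doxycycline, entered the fit only for its spread, and they share the 3 controls with the restored mice, so no relation between the comparisons is drawn. Their own values for the main lists are given as a record. The median log2 difference from the controls was -0.37 in mouse 28 and -0.01 in mouse 30 for cytosolic tRNA synthetases, 0.50 in mouse 28 and 0.51 in mouse 30 for small nucleolar RNA host genes, 0.51 in mouse 28 and 0.31 in mouse 30 for ribosomal proteins, and -1.55 in mouse 28 and -1.41 in mouse 30 for macrophage markers. For mast cell and basophil markers it was 0.82 in mouse 28 and 1.23 in mouse 30, and the markers summed to 831 and 1140 CPM, above the 520 to 649 CPM of the controls and below both restored mice. It was -0.48 and -0.06 for cohesin and condensin, -0.36 and -0.09 for large ubiquitin ligases, -0.23 and 0.15 for ATF4 targets and -0.13 and 0.09 for heat shock genes. From the shortest to the longest bin of genes, the median difference ran from 0.37 to -0.31 in mouse 28 and from 0.17 to -0.09 in mouse 30. In mice 28 and 30, Csf1 had 0.785 and 1.33 CPM, against 4.10 and 5.30 CPM in the restored libraries. Pja1 stood at 8.33 and 1.58 CPM, so 1 of these libraries lay above the controls' highest value of 7.45 CPM and the other below their lowest of 4.03 CPM. Cirbp stood at 81.0 and 46.0 CPM, both above the controls and below the restored mice.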
